A study of Mus musculus with 63 samples.

Results

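The miR-30 family was described in sorted cells of the mouse kidney through injury and its reversal. Its members were the rows of the deposited count table that carry 1 of 10 mature names: mmu-miR-30a-5p, mmu-miR-30a-3p, mmu-miR-30b-5p, mmu-miR-30c-5p, mmu-miR-30c-1-3p, mmu-miR-30c-2-3p, mmu-miR-30d-5p, mmu-miR-30d-3p, mmu-miR-30e-5p and mmu-miR-30e-3p, written hereafter without the species prefix. The rule uses the names alone. The 10 names were 10 of 1966 in the table and covered 11 of its 2110 loci, since miR-30c-5p is counted at a locus on chromosome 1 and at another on chromosome 4. All 11 loci passed the filter on low counts in every fit.

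Male C57BL/6 mice of 8 to 12 weeks, with no altered allele named, underwent a sham operation or ligation of the ureter for 2 days (UUO-2) or 7 days (UUO-7), or had the ureter reimplanted after 7 days of ligation and were killed 2 weeks later (R-UUO). Each digested kidney was sorted by surface label into endothelial cells (EC, CD31+), F4/80hi macrophages (Mac), LTL+ proximal tubular cells (PT) and PDGFRb+ stromal cells (PDGFRb), and small RNA of each sort was sequenced. The 16 mice, 4 per condition, gave 63 libraries, 4 per group except for PDGFRb at UUO-7 with 3. The paper states that the sequenced mice were picked from larger groups, as those nearest the mean in Havcr1, a marker of kidney injury. The spreads and gaps between groups given here are those of mice picked in this way. The sort rests on surface label alone, so that each library is the average of all cells in 1 gate.

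MicroRNA hairpins are cut into a 5p and a 3p strand, and a strand loaded into Argonaute finds its target messages mainly through its seed, bases 2 to 8 from the 5′ end. Members of a family share a seed, so that they can act on many of the same messages. The miR-30 5p strands are abundant in kidney epithelium, where they are known for a part in tubule development and in podocytes, and for targeting messages of epithelial dedifferentiation.

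The sequences show which members could be told apart by the read and which share a seed. They are the RefSeq mature sequences for GRCm38.p6, with the seed in capitals, and 7 of the 10 names had one. The 5p strands that carry most of the counts are listed before the 3p strands.
miR-30a-5p: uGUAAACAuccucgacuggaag
miR-30e-5p: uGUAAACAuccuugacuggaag
miR-30c-5p: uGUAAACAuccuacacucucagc
miR-30a-3p: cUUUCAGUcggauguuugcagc
miR-30e-3p: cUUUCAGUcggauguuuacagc
miR-30c-2-3p: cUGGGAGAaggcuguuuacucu
miR-30c-1-3p: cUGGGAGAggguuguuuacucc

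The 3 printed 5p strands have the seed GUAAACA in common and are identical over their first 12 bases. Counting from 1 at the 5′ end, miR-30e-5p differs from miR-30a-5p by C13U alone, and miR-30e-3p differs from miR-30a-3p by G18A alone. The 3p strands of the miR-30c hairpins share the seed UGGGAGA and differ by 3 bases (A9G, C12U and U22C, from miR-30c-2-3p to miR-30c-1-3p). Outside the family, only miR-384-5p carried the 5p seed among the sequences searched, and it had 3 counts in 2 of the libraries.

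The members lie in 3 clusters of GRCm38. On the plus strand of chromosome 1, miR-30a-5p (chr1:23272274-23272295) and miR-30a-3p (chr1:23272315-23272336) lie in the Mir30a hairpin, and miR-30c-5p (chr1:23291714-23291736) and miR-30c-2-3p (chr1:23291754-23291775) lie in Mir30c-2, inside an exon of the long noncoding RNA Gm27028. These 4 loci span 19502 bases. On the minus strand of chromosome 4, an intron of Nfyc, which encodes a subunit of the CCAAT-binding factor NF-Y, holds miR-30e-5p (chr4:120772660-120772681), miR-30e-3p (chr4:120772618-120772639), the other miR-30c-5p locus (chr4:120769584-120769606) and miR-30c-1-3p (chr4:120769546-120769567) within 3136 bases. On the minus strand of chromosome 15, miR-30b-5p (chr15:68337469-68337490) lies beside miR-30d-5p (chr15:68341257-68341278) and miR-30d-3p (chr15:68341217-68341238), and the miR-30d hairpin lies in an exon of the long noncoding RNA Gm20732.

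The mature miR-30c-5p is the same molecule from either hairpin, and its reads were divided between its loci in a fixed proportion. The chromosome 1 locus held 82.5% to 83.7% of the miR-30c-5p counts in every library. Over the same libraries the log2 ratio of miR-30c-2-3p to miR-30c-1-3p, whose sequences differ, ranged from -0.12 to 3.85. The miR-30c-5p loci were therefore read as 1 measurement, and neither locus says which hairpin was used. The row of miR-30f, annotated on the opposite strand of the Mir30e hairpin, held 1.00 to 1.02 times the miR-30e-3p counts in each library and was not read as a separate miRNA.

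Library totals lay between 616565 and 10819385 counts, with 622689 to 987306 in PT sham, and even miR-30d-3p, the rarest member, had 25 counts or more in each library. Levels are in CPM (counts scaled to a common library total) after TMM scaling, which adjusts library totals for their composition. Changes within a cell type use CPM scaled within that cell type, except for the summed marker lists. Those lists and the comparisons of cell types use CPM scaled over all 63 libraries. The TMM factors over all libraries were 0.471 to 0.769 in EC, 0.622 to 1.09 in PDGFRb, 0.517 to 1.53 in PT and 1.37 to 2.01 in Mac, so that the scaling itself separates the cell types. A call required an adjusted p under 0.05 in edgeR's quasi-likelihood test (Benjamini-Hochberg over all loci tested) and a fold change over 1.5. The summed marker list of each sort was at its highest in that sort, although miR-215-5p of the PT list was near 0 in all 4 (1.84 CPM in PT sham and 2.89 in Mac). The EC pair miR-126a-3p and miR-126a-5p had 140560 to 162368 CPM in EC sham and at most 3386 in any other sham library. The PT library of R-UUO replicate 1 stood apart, with a TMM factor of 0.517 against 1.14 to 1.26 in the other PT R-UUO libraries, and with 0.806% of its counts in miR-192-5p, a tubule miRNA, against 4.26% to 7.23%. All comparisons with sham within a cell type share the same sham libraries, and in such bulk samples fewer cells of a type and less RNA per cell cannot be told apart.

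In sham the family took a larger part of the PT libraries than of the others. Summed over its 11 loci it made up 12.8% ± 0.381 (SD, n = 4) of all counts in PT sham, 6.80% ± 0.178 in EC, 6.37% ± 0.177 in Mac and 4.39% ± 0.507 in PDGFRb, and the PT libraries (12.4% to 13.2%) lay above all other sham libraries. These shares need no scaling between libraries. The 5p strands supplied 97.0% to 98.6% of the family counts in every library. At UUO-7 the share was 9.23% ± 0.241 in PT, 4.89% ± 0.365 in EC and 4.67% ± 0.255 in Mac, below every sham library of the same cell type. In PDGFRb it was 3.88% ± 0.532 (n = 3), with 3.504% and 3.65% below every sham library and 4.49% within the sham range of 3.77% to 4.83%. In R-UUO the PT share was 9.69% ± 3.08, and PT replicate 1, at 5.77%, lay below EC replicate 2 at 6.01%.

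In sham the cell types differed in which members were high. Between PT and EC, 5 of the 11 loci were higher and 4 lower in PT, where 27% and 30% of the 671 loci tested were called higher and lower. PT against Mac gave 8 higher and 2 lower (background 26.7% and 25.5%), and PT against PDGFRb 5 higher and 1 lower (28% and 25.6%). EC against Mac gave 7 higher and 0 lower (32.2% and 24.3%), EC against PDGFRb 5 higher and 1 lower (23.1% and 15.6%), and PDGFRb against Mac 5 higher and 0 lower (29.7% and 31.7%). The median log2 difference over the 11 loci was 1.71 for PT minus Mac, beside -0.12 over all loci, and -0.23 for PT minus EC, beside -0.06. With library size in place of TMM the median of all loci moved to 0.85 for PT minus EC, -0.90 for EC minus Mac and -0.93 for PDGFRb minus Mac, and the members' calls became 6 higher and 0 lower, 3 higher and 4 lower, and 0 higher and 6 lower. For PT minus PDGFRb the median of all loci moved to 0.82 and the calls became 8 higher and 0 lower. DESeq2 gave 5 higher and 1 lower for PT minus EC, and 5 higher and 0 lower for EC minus PDGFRb.

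From the chromosome 1 cluster, miR-30a-5p was the most abundant member in EC, PT and PDGFRb and had its highest level in EC. The 4 sham libraries held 65133, 56937, 70459 and 59335 CPM in EC, 34688, 36259, 41231 and 39421 in PT, 36798, 26877, 31606 and 29919 in PDGFRb, and 13642, 11054, 14298 and 14276 in Mac. EC lay above all other libraries and Mac below them, while PT and PDGFRb overlapped. The log2 difference was 2.24 ± 0.15 (SE) for EC minus Mac (adjusted p = 1.7e-19) and 1.01 ± 0.14 for EC minus PDGFRb (adjusted p = 5.5e-08), and PT minus PDGFRb, at 0.28 ± 0.14, did not pass (adjusted p = 0.0952). PT minus EC was -0.73 ± 0.14 with TMM (adjusted p = 1.54e-05) and 0.31 with library size only, so that the order of EC and PT rests on the scaling. The 3p strand of the neighbouring hairpin, miR-30c-2-3p, had the same order of means, with 938 CPM in EC, 319 in PT, 278 in PDGFRb and 150 in Mac (scaled over all libraries). Its step from PT to PDGFRb did not pass (0.20, adjusted p = 0.375), and PDGFRb minus Mac turned to -0.21 with library size only.

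From the Nfyc intron on chromosome 4, miR-30e-5p had its highest level in PT. In sham it held 17069, 19422, 22496 and 21694 CPM in PT, against 8662, 5707, 7398 and 6880 in PDGFRb, 5723, 5688, 7914 and 5977 in EC and 6144, 5654, 6092 and 6176 in Mac. All 4 PT libraries lay above every other library, and the other 3 cell types overlapped. PT exceeded EC by a log2 of 1.67 ± 0.17 (adjusted p = 1.72e-12), Mac by 1.75 ± 0.17 (adjusted p = 4.15e-13) and PDGFRb by 1.49 ± 0.17 (adjusted p = 5.63e-11). The other 3 cell types did not pass the test against each other (adjusted p of neighbours 0.421 and 0.725), but with library size only Mac was called above EC (-1.07 for EC minus Mac) and PDGFRb (-0.85 for PDGFRb minus Mac). Its 3p strand miR-30e-3p and the neighbouring miR-30c-1-3p were also called higher in PT than in each other cell type, by log2 differences of 1.22 to 1.93 and 0.96 to 1.71. These 9 calls of the intron's members stood under all 11 alternative settings.

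miR-30c-5p, counted from both clusters, was also highest in PT. At its chromosome 1 locus the sham libraries held 12064, 14060, 15552 and 16801 CPM in PT, 8954, 9363, 10573 and 9224 in EC, 5133, 3467, 4309 and 4395 in PDGFRb, and 3395, 3560, 3012 and 2828 in Mac. PT and EC did not overlap, but their difference of 0.62 ± 0.19 (adjusted p = 0.00487) stood just above the fold threshold and was lost under 5 of the 11 alternatives. PT minus PDGFRb was 1.76 ± 0.20 (adjusted p = 3.35e-11) and PT minus Mac 2.19 ± 0.20 (adjusted p = 2.88e-14).

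With TMM the chromosome 15 members had their lowest levels in PT. miR-30d-5p held 11374, 11133, 12639 and 11986 CPM in PT sham, against 12890 to 15417 in EC, 15082 to 17688 in PDGFRb and 16059 to 16534 in Mac. No pair of cell types passed both thresholds for it, the largest difference being -0.47 ± 0.14 for PT minus Mac (adjusted p = 0.00272). miR-30b-5p held 965, 993, 1194 and 1278 CPM in PT and 2148, 2185, 1858 and 1883 in Mac, and the difference of -0.87 ± 0.17 was called (adjusted p = 2.45e-05). PT minus EC was called for it at -0.68 ± 0.17 (adjusted p = 0.000684), and that sign turned to 0.36 with library size only. Under that scaling PT minus EC also turned to 0.81 for miR-30d-5p, past both thresholds, and to 0.44 for miR-30d-3p, and PT minus PDGFRb to 0.56 for miR-30d-5p and 0.47 for miR-30b-5p, so that across the 3 members only the place of PT below Mac held under both scalings.

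**Figure D1:**
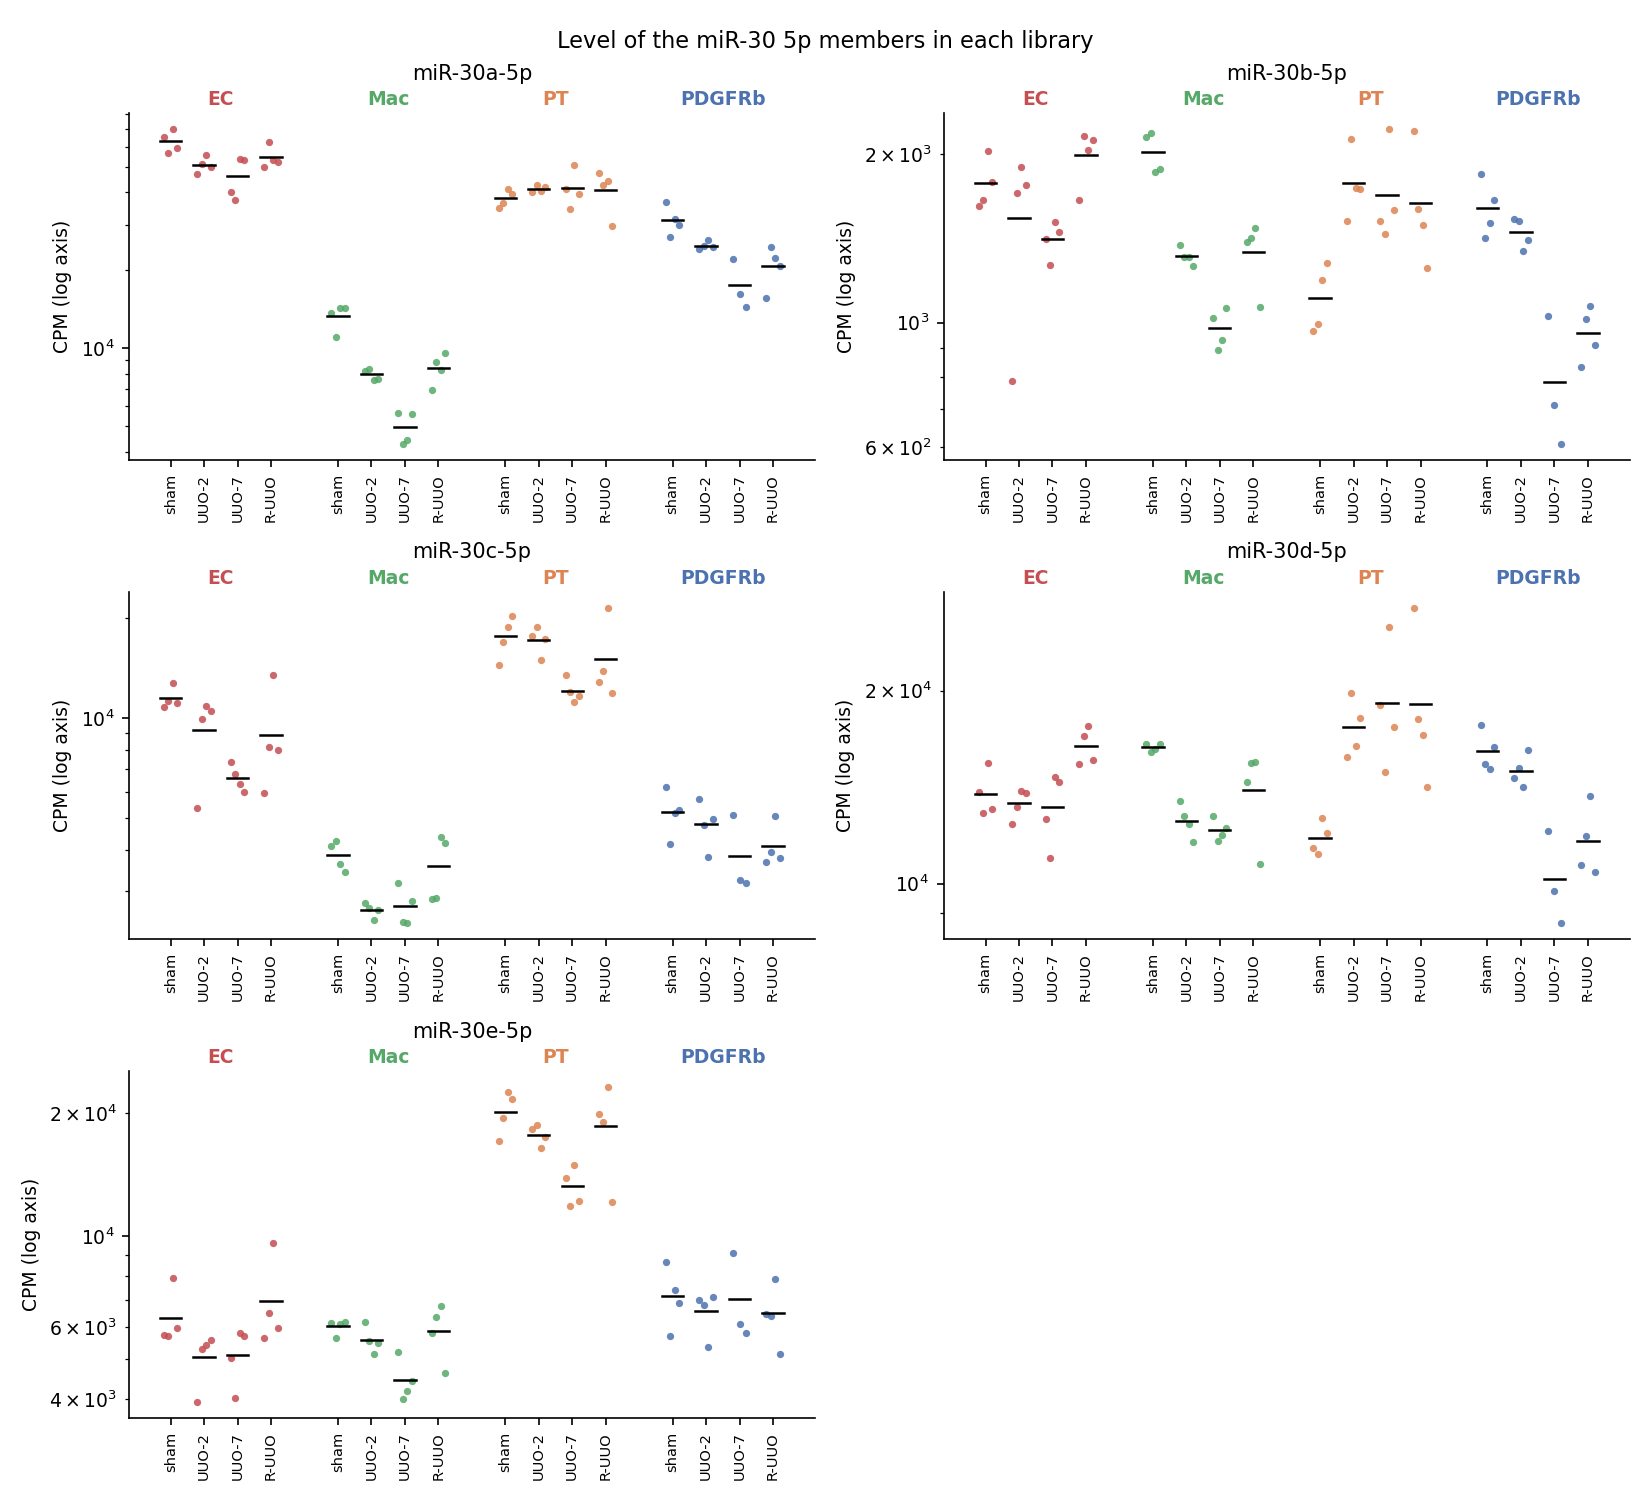
Level of the 5 miR-30 5p members (1 panel each, miR-30c-5p summed over its loci) in CPM scaled over all 63 libraries, on a log axis, by cell type and condition. Points are libraries and bars are means (4 libraries a group, 3 for PDGFRb at UUO-7). Among the sham libraries those of PT lie above all others for miR-30e-5p, and those of Mac below all others for miR-30a-5p.

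As shares of the family's 5p counts, which need no scaling, the cell types differed in the same members. miR-30a-5p was 65.3% ± 1.17 of them in EC sham, 50.9% ± 1.1 in PDGFRb, 42.8% ± 1.02 in PT and 32.0% ± 2.68 in Mac. In Mac the largest share was that of miR-30d-5p, at 39.4% ± 1.09, against 13.3% ± 0.781 in PT. miR-30e-5p made up 22.7% ± 0.702 in PT, 14.5% ± 0.0849 in Mac, 11.6% ± 0.722 in PDGFRb and 6.54% ± 0.576 in EC, with no overlap between any of the 4 sham groups. miR-30b-5p never exceeded 5.57% in a library.

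**Figure D2:**
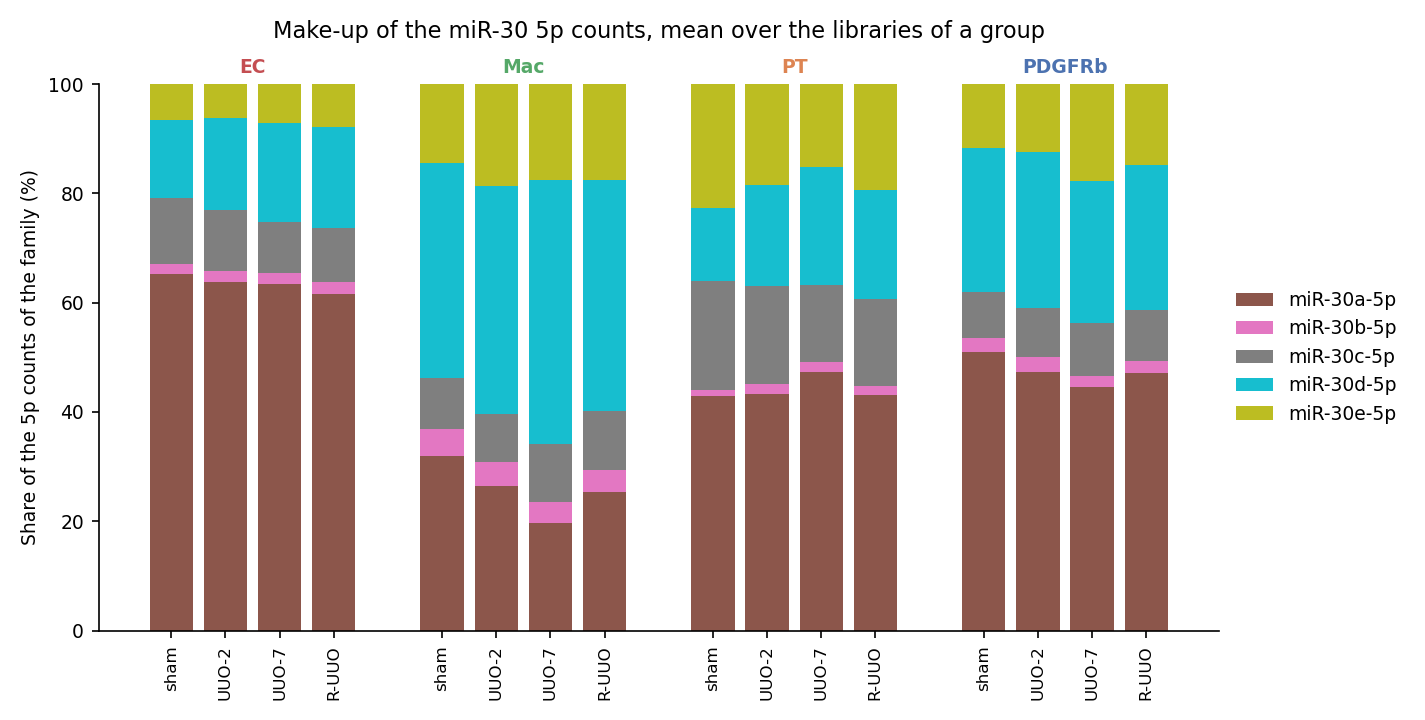
Make-up of the family's 5p counts in % (stacked bars, mean over the libraries of a group) by cell type and condition. In PT the miR-30e-5p part goes from 22.7% in sham to 15.2% at UUO-7 while that of miR-30d-5p goes from 13.3% to 21.7%, and in Mac the miR-30a-5p part goes from 32.0% to 19.7%.

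After 7 days of obstruction, members of the family were called in both directions in PT with TMM scaling. At UUO-7 against sham 1 of the 11 loci was called higher and 3 lower, the latter including both miR-30c-5p loci. Of the 330 PT loci tested, 25.5% and 17.6% were called higher and lower. The median log2 difference was 0.03 over the members and 0.00 over all loci. miR-30e-5p fell: the libraries held 20411, 22389, 26360 and 25912 CPM (scaled within PT) in sham and 14893, 13394, 16741 and 13228 at UUO-7. No UUO-7 library reached the sham range, and the log2 difference was -0.71 ± 0.18 (adjusted p = 0.00504), called under all 15 alternatives. miR-30c-5p fell at both loci by a log2 of 0.65 ± 0.18 (adjusted p = 0.00825 and 0.00853), from 14426, 16208, 18224 and 20068 to 11956, 11216, 10373 and 10492 CPM at the chromosome 1 locus, again with no overlap. That call was lost without the filter and where the loci were summed.

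Of the chromosome 15 members, miR-30d-5p was called higher in injured PT. It held 13602, 12834, 14810 and 14316 CPM in sham and 20308, 16839, 28153 and 19001 at UUO-7. All UUO-7 libraries lay above sham, and the difference of 0.60 ± 0.20 was called (adjusted p = 0.0224). It was lost in 6 of 15 alternatives: with library size only (0.23), and without sham replicate 1 (0.57), 2 (0.54) or 4 (0.58) or UUO-7 replicate 2 (0.58) or 4 (0.41). miR-30b-5p passed on the adjusted p alone (0.52 ± 0.20, adjusted p = 0.0413), and miR-30d-3p had the same size of difference with a wider error (0.60 ± 0.33, adjusted p = 0.141). The chromosome 1 members miR-30a-5p (0.03 ± 0.17, adjusted p = 0.889) and miR-30a-3p (0.12 ± 0.11, adjusted p = 0.351) did not pass. With library size only, the median of all PT loci moved to -0.37, and the members' calls were 0 higher and 4 lower.

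The TMM factors of PT went from 1.32 to 1.53 in sham to 0.874 to 1.24 at UUO-7. The PT marker list (miR-192-5p, miR-194-5p and miR-215-5p) went from 99842 to 130294 CPM in sham to 32309 to 53395 at UUO-7, and the PDGFRb list (5 names, most of its counts miR-143-3p) from 1617 to 3496 CPM to 7030 to 18214. The list of distal epithelium (miR-200b-3p, miR-200c-3p and miR-141-3p) went from 3128 to 3624 CPM to 5305 to 7172. The part of these shifts in the miR-30 changes of PT was not tested.

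In Mac every called member fell, and miR-30a-5p and miR-30c-2-3p of chromosome 1 had the largest differences. At UUO-7 5 of the 11 loci were called lower and 0 higher, where 16.8% of the 457 Mac loci were called lower and 26.3% higher. The median log2 difference was -0.37 over the members and 0.22 over all loci. miR-30a-5p held 21271, 17309, 23285 and 20968 CPM (scaled within Mac) in sham and 9841, 7517, 8282 and 8544 at UUO-7. The highest injured library lay far below the lowest sham library, and the difference was -1.28 ± 0.12 (adjusted p = 3.62e-07). miR-30c-2-3p fell from 229, 208, 270 and 225 CPM to 104, 87.1, 90.9 and 109, by a log2 of 1.26 ± 0.22 (adjusted p = 0.000155). miR-30c-1-3p, from the other miR-30c hairpin, showed 0.07 ± 0.18 (adjusted p = 0.779).

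Of the other members of Mac, miR-30b-5p fell from 3349, 3422, 3026 and 2766 CPM to 1789, 1571, 1736 and 1623, by a log2 of 0.90 ± 0.11 (adjusted p = 4.82e-06), with no overlap. miR-30a-3p (-0.82 ± 0.21, adjusted p = 0.0035) and miR-30d-3p (-0.67 ± 0.17, adjusted p = 0.0036) were also called. miR-30d-5p (-0.28 ± 0.10, adjusted p = 0.0272) and miR-30e-5p (-0.29 ± 0.11, adjusted p = 0.0474) passed on the adjusted p and not on the fold. The calls of miR-30a-5p, miR-30a-3p, miR-30b-5p and miR-30c-2-3p stood under all 14 alternatives, and without UUO-7 replicate 2 the count was 8. The Mac marker list (miR-223-3p, miR-142a-3p and miR-142a-5p) went from 34889 to 41963 CPM to 17974 to 21208 over the same libraries, and the PT list in the Mac gate from 3511 to 5216 CPM to 1237 to 2263. Their part in the fall of the miR-30 members was not tested.

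In PDGFRb cells 6 of the 11 loci were called lower and 0 higher at UUO-7, where 14.3% of the 477 loci tested were called lower and 34% higher. The median log2 difference was -0.72 over the members and 0.50 over all loci. miR-30b-5p went from 1347, 1236, 1137 and 1322 CPM (scaled within PDGFRb) to 742, 546 and 487, a log2 difference of -1.09 ± 0.15 (adjusted p = 2.08e-05). miR-30a-5p went from 26868, 23423, 23878 and 23902 to 16019, 12474 and 11558 (-0.88 ± 0.13, adjusted p = 6.26e-05). miR-30d-5p went from 12915, 13404, 11395 and 13074 to 8735, 7478 and 6963 (-0.72 ± 0.10, adjusted p = 3.87e-05). The injured libraries lay below sham for each of these 3 members, and the other calls were miR-30a-3p (-0.85), miR-30c-1-3p (-0.84) and miR-30d-3p (-1.104).

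miR-30e-5p stood outside that fall in PDGFRb, with 6325, 4974, 5589 and 5496 CPM in sham and 6578, 4684 and 4654 at UUO-7 (-0.08 ± 0.15, adjusted p = 0.69). The 6 PDGFRb calls depended on the scaling: with library size only the median of all loci was 1.02 and 0 members were called, miR-30b-5p being at -0.58 and miR-30d-5p at -0.20. The TMM factors of this gate went from 0.656 to 0.776 in sham to 0.887 to 1.09 at UUO-7. Its own marker list, most of it miR-143-3p, went from 326459 to 398331 CPM to 145392 to 174139. Of its 5 names miR-143-3p (-1.48) and miR-145a-5p (-1.28) fell, while miR-199a-5p (2.39 at its chromosome 1 locus), miR-199a-3p (2.09) and miR-214-3p (3.06) rose. The Mac list in it went from 53.0 to 171 CPM to 273 to 698, and the part of these shifts was not tested.

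In EC at UUO-7 1 locus of 11 was called lower and 0 higher, where 5.33% of the 469 loci were called lower and 6.18% higher. This was miR-30c-5p at its chromosome 1 locus, from 5383, 6049, 6562 and 5739 CPM to 4269, 3929, 3387 and 3116 (-0.69 ± 0.22, adjusted p = 0.0447), without overlap. The call was lost without any 1 of the 8 libraries and where the loci of a name were summed. With library size only 4 members were called lower. miR-30a-5p (-0.35 ± 0.10, adjusted p = 0.0282) and miR-30a-3p (-0.45 ± 0.09, adjusted p = 0.00346) lay below sham in all 4 libraries and under the fold threshold, and miR-30d-5p showed 0.03 ± 0.09.

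**Figure D3:**
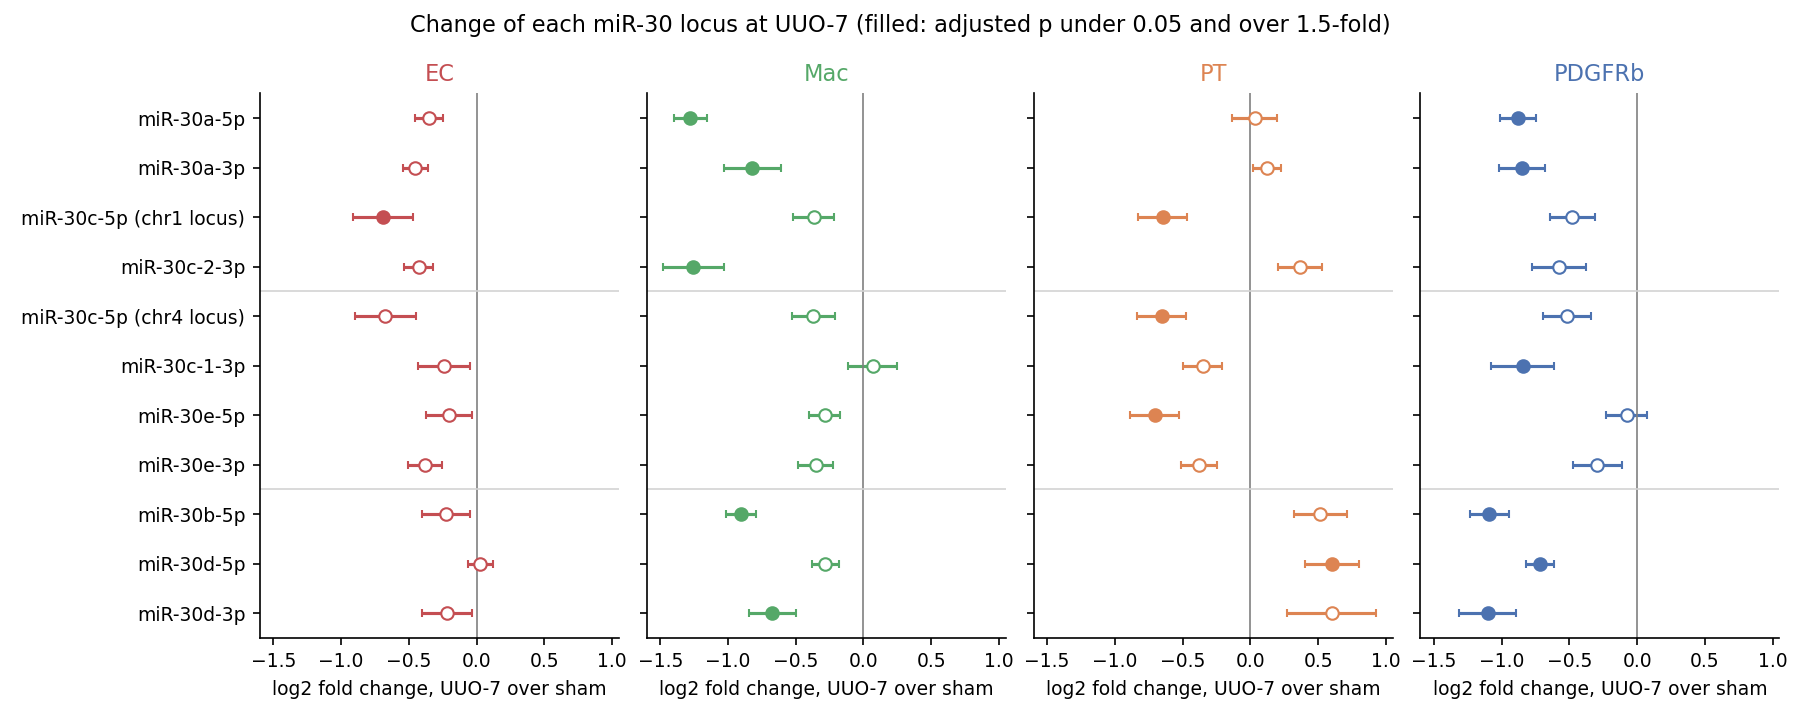
Log2 fold change of each member locus at UUO-7 over sham in each cell type (points, with bars of 1 SE from edgeR's quasi-likelihood fit), grouped by chromosome 1, 4 and 15 from the top. Filled points passed an adjusted p under 0.05 and a fold change over 1.5: 1 in EC, 5 in Mac, 4 in PT and 6 in PDGFRb. PT is the panel with called members on both sides of 0.

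The change at UUO-7 differed between PT and at least 1 other cell type for miR-30a-5p, miR-30a-3p, miR-30c-2-3p and the chromosome 15 members. This fit was scaled over all 63 libraries, so its values need not equal the gaps between the changes given above for each cell type. In the test of the difference itself, 5 of 11 loci were called for PT minus EC, 6 for PT minus Mac and 6 for PT minus PDGFRb, each of them more positive in PT, where 12.7%, 17.6% and 13.9% of the 671 loci were called in that direction and 3.43%, 9.84% and 13.1% in the other. The difference against Mac was 1.55 ± 0.20 for miR-30a-5p (adjusted p = 3.19e-08), 1.86 ± 0.26 for miR-30c-2-3p (adjusted p = 1.5e-07) and 1.66 ± 0.25 for miR-30b-5p (adjusted p = 3.99e-07). Against PDGFRb it was 1.65 ± 0.26 for miR-30b-5p (adjusted p = 6.5e-07) and 1.36 ± 0.20 for miR-30d-5p (adjusted p = 2.29e-07). For miR-30e-5p, which fell in PT, the differences of -0.31 ± 0.24, -0.17 ± 0.24 and -0.58 ± 0.25 (PT minus EC, Mac and PDGFRb) did not pass, and those of miR-30c-5p lay between -0.11 and 0.25.

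These calls depended on the scaling as well. With library size only the medians of all loci were -0.03, -0.58 and -1.08, against 0.31, 0.06 and -0.17 with TMM, and the members' calls were 0 higher and 1 lower, 3 higher and 2 lower, and 1 higher and 4 lower. DESeq2, with medians of -0.15, -0.66 and -0.75 over all loci, gave 2 higher and 1 lower, 5 higher and 2 lower, and 6 higher and 1 lower. The differences against Mac of miR-30a-5p, miR-30b-5p and miR-30c-2-3p, and that against PDGFRb of miR-30b-5p, were called under all 14 alternatives, library size included (0.82, 0.93, 1.12 and 0.73).

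A ratio of 2 members within a library is free of that scaling, and it showed the same divergence in PT. These ratios were chosen after their values were seen and carry no test. The log2 ratio of miR-30d-5p to miR-30e-5p in PT was -0.59, -0.80, -0.83 and -0.86 in sham, -0.22, 0.09, -0.00 and 0.05 at UUO-2, and 0.45, 0.33, 0.75 and 0.52 at UUO-7. In R-UUO it was 0.44, -0.08, -0.45 and 0.22. The 3 earlier groups did not overlap, and R-UUO spread over the range from just above sham to UUO-7. In PDGFRb the same ratio went the other way, from 1.03, 1.43, 1.03 and 1.25 in sham to 0.41, 0.67 and 0.58 at UUO-7, while in Mac it stayed in an overlapping range (1.41 to 1.51 and 1.29 to 1.54).

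The 3p strands of the miR-30c hairpins also diverged. In Mac the log2 ratio of miR-30c-2-3p to miR-30c-1-3p went from 1.54, 1.32, 1.53 and 1.3005 in sham to -0.12, -0.11, 0.17 and 0.52 at UUO-7, with UUO-2 (0.80 to 1.04) between them. In PT it went from 0.92, 0.73, 0.89 and 0.65 to 1.44, 1.34, 1.76 and 1.53. Sham and UUO-7 did not overlap in either cell type, and the ratio was lower than sham in Mac and higher in PT. It was highest in EC, at 3.26 to 3.68 in sham and 3.04 to 3.56 at UUO-7.

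**Figure D4:**
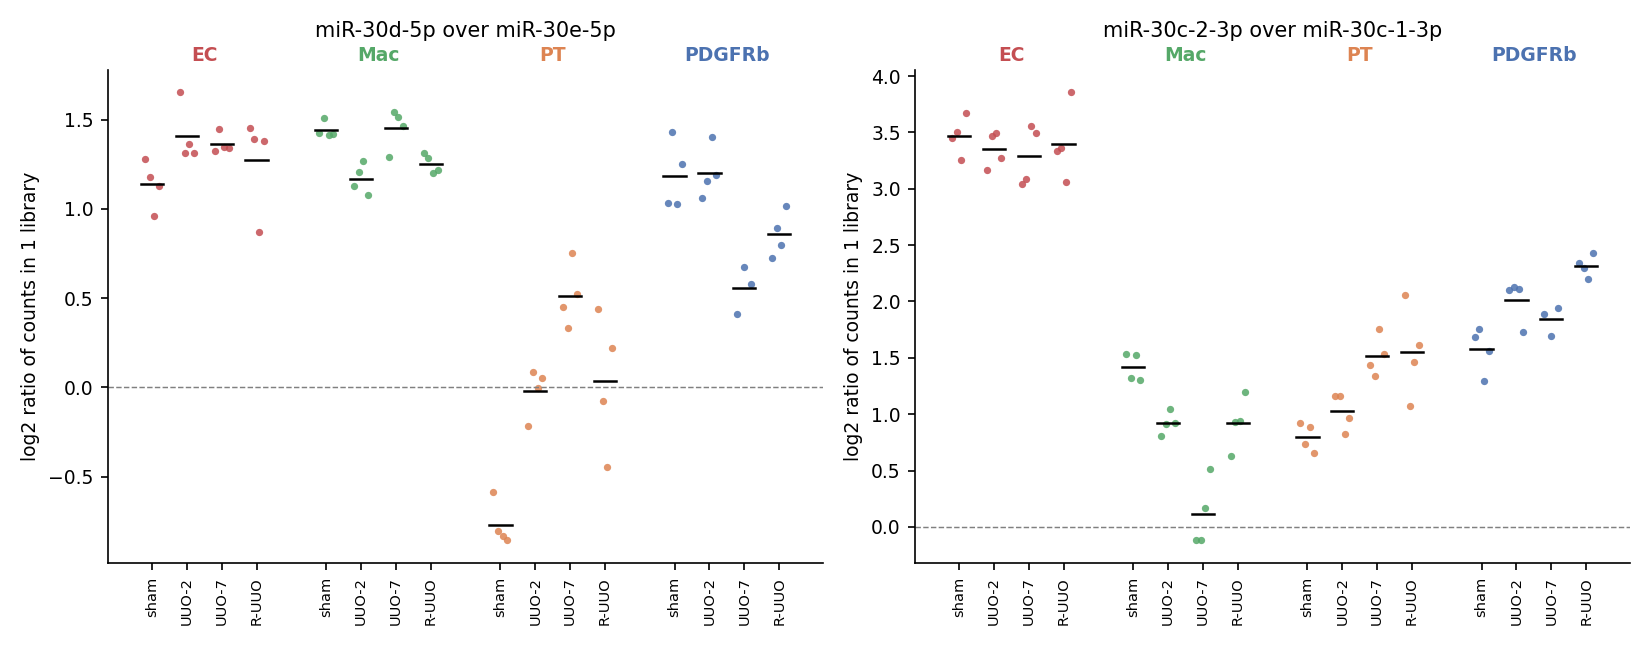
Log2 ratio of counts within a library of miR-30d-5p over miR-30e-5p (left) and of miR-30c-2-3p over miR-30c-1-3p (right), by cell type and condition. Points are libraries, bars are means and the dashed line marks equal counts. In PT the left ratio crosses from -0.86 to -0.59 in sham to 0.33 to 0.75 at UUO-7, and in Mac the right ratio reaches -0.12 to 0.52 at UUO-7.

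After 2 days of obstruction few members were called. In PT 1 locus was called higher and 0 lower (background 14.8% and 4.24%): miR-30b-5p went from 1155, 1145, 1399 and 1527 CPM to 1766, 2437, 1994 and 1927 (0.64 ± 0.20, adjusted p = 0.0321). The groups did not overlap, but the call was lost without sham replicate 1 or 2 or any 1 of the 4 UUO-2 libraries, and with library size only (0.46). In Mac 2 loci were called lower and 0 higher (background 9.19% and 18.4%), miR-30c-2-3p at -0.83 ± 0.22 (adjusted p = 0.00783) and miR-30a-3p at -0.61 ± 0.21 (adjusted p = 0.0322), the latter not with library size only (-0.45). miR-30a-5p in Mac, at 13741, 15017, 13125 and 14345 CPM, lay between sham and UUO-7 with no overlap on either side (-0.56 ± 0.12, adjusted p = 0.00197, under the fold threshold). That difference was called under 12 of the 14 alternatives. With any 1 of the 8 libraries left out the Mac count was 3 to 4. It was 4 without UUO-2 replicate 2, sham replicate 3 or sham replicate 4. By edgeR 0 members were called in EC and 0 in PDGFRb (background 1.71% and 6.29% in either direction). There 2 and 4 had an unadjusted p under 0.05, and DESeq2 called 0 and 2. In PDGFRb 1 was called without UUO-2 replicate 3 or sham replicate 2.

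After reversal, miR-30a-5p in Mac lay between UUO-7 and sham. The mean of miR-30c-2-3p did too (155 CPM, scaled within Mac), but its R-UUO libraries ran from 91.0 to 249 CPM. They reached into both the UUO-7 range (87.1 to 109) and the sham range (208 to 270). Against UUO-7, 2 Mac loci were called higher and 0 lower (background 12.7% and 7.22%), miR-30a-5p at 0.67 ± 0.12 (adjusted p = 0.000962) and miR-30c-2-3p at 0.65 ± 0.22 (adjusted p = 0.0411). miR-30a-5p held 11424, 14072, 12732 and 16301 CPM in R-UUO, above every UUO-7 library and below every sham library. Against sham it was still lower by a log2 of 0.60 ± 0.12 (adjusted p = 0.000826), with 2 loci called lower and 0 higher (background 10.5% and 21.4%), the other being miR-30c-2-3p at -0.60 ± 0.22 (adjusted p = 0.0382). miR-30b-5p stayed below sham at -0.54 ± 0.11 (adjusted p = 0.000774), under the fold threshold. Against UUO-7, 0 members were called with library size only (0.45 for miR-30a-5p), without the filter, or with only the compared groups in the fit, and the call of miR-30c-2-3p was also lost without R-UUO replicate 4 or 5 or UUO-7 replicate 3 or 4, and that against sham without R-UUO replicate 1. With any 1 of the 8 libraries left out, 3 to 5 members were called against sham.

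In PDGFRb 0 members were called between R-UUO and UUO-7 by edgeR and 0 by DESeq2 (background 3.98% in either direction, 0 with an unadjusted p under 0.05), and 4 were called lower and 0 higher than sham (background 13.8% and 27.9%): miR-30a-5p (-0.64 ± 0.12, adjusted p = 0.000518), miR-30b-5p (-0.80 ± 0.13, adjusted p = 0.000161), miR-30c-1-3p (-0.91 ± 0.21, adjusted p = 0.00274) and miR-30d-3p (-0.94 ± 0.19, adjusted p = 0.000975). miR-30b-5p held 678, 734, 748 and 741 CPM in R-UUO, all below the lowest sham library (1137). With library size only the calls of miR-30a-5p (-0.36) and miR-30b-5p (-0.51) were lost and 2 stood, and that of miR-30a-5p was also lost without R-UUO replicate 1. In EC 0 members were called against UUO-7 by edgeR and 0 by DESeq2 (background 1.07%, 5 with an unadjusted p under 0.05). Against sham 1 was called lower and 0 higher (background 5.12% and 11.7%), miR-30c-2-3p at -0.61 ± 0.11 (adjusted p = 0.000708). It held 616, 607, 536 and 575 CPM in sham and 338, 359, 414 and 422 in R-UUO, with no overlap, and the call was lost when any library but sham replicate 3 was left out.

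In PT 0 members were called between R-UUO and UUO-7 by edgeR and 0 by DESeq2 (background 1.52%, 3 with an unadjusted p under 0.05), and 1 was called without R-UUO replicate 5. Against sham 2 were called higher and 0 lower (background 25.8% and 13%): miR-30d-5p (0.67 ± 0.20, adjusted p = 0.0143) and miR-30d-3p (0.86 ± 0.33, adjusted p = 0.0481). miR-30d-5p held 32691, 19931, 20159 and 15768 CPM, and the highest value was that of replicate 1, the library that stood apart. Without it the differences were 0.45 (adjusted p = 0.0442) and 0.55 (adjusted p = 0.197), and 0 members were called. The count was 1 without R-UUO replicate 2 or sham replicate 2, 3 or 4. With library size only 0 members were called higher and 2 lower. miR-30e-5p held 24144, 21032, 27471 and 13523 CPM in R-UUO, spread over both the sham and the UUO-7 range (-0.14 ± 0.18 against sham, adjusted p = 0.534).

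The log2 ratio of 5p to 3p counts within a library needs no scaling. For miR-30a, miR-30d and miR-30e it compares the strands of 1 hairpin, while for miR-30c it sums both hairpins, whose 5p reads cannot be told apart. Over the mice with both cell types, 9 of 12 comparisons of PT with another cell type passed an exact sign-flip test, and 0 of 16 comparisons of UUO-7 with sham passed an exact permutation test (2-sided, adjusted over the 28 tests). The miR-30c ratio was larger in PT than in EC by 1.27 (adjusted p = 0.000427, exact sign-flip over 16 mice) and than in PDGFRb by 0.91 (adjusted p = 0.000427, exact, 15 mice). That of miR-30d was larger in PT than in PDGFRb by 0.57 (adjusted p = 0.000684, exact) and than in Mac by 0.31 (adjusted p = 0.0286, exact). That of miR-30a was smaller in PT than in EC, Mac and PDGFRb, by differences of -0.25, -0.23 and -0.30 (adjusted p = 0.000427, 0.00854 and 0.000854, exact). The miR-30e ratio was smaller in PT than in Mac by a difference of -0.39 (adjusted p = 0.000427, exact) and did not pass against PDGFRb (-0.00).

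With injury, 5 of the 16 arm ratio comparisons separated UUO-7 from sham with no overlap, at 0.0286, the smallest p that the exact test can give here, and at an adjusted p of 0.0571. They were miR-30c in PT (-0.78) and Mac (0.39), miR-30e in PT (-0.32) and PDGFRb (0.22), and miR-30a in Mac (-0.49). In PT the miR-30c ratio went from 4.83, 4.90, 5.21 and 5.58 to 4.34, 4.60, 4.15 and 4.29. The part of the share of each hairpin in the miR-30c values was not tested.

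**Figure D5:**
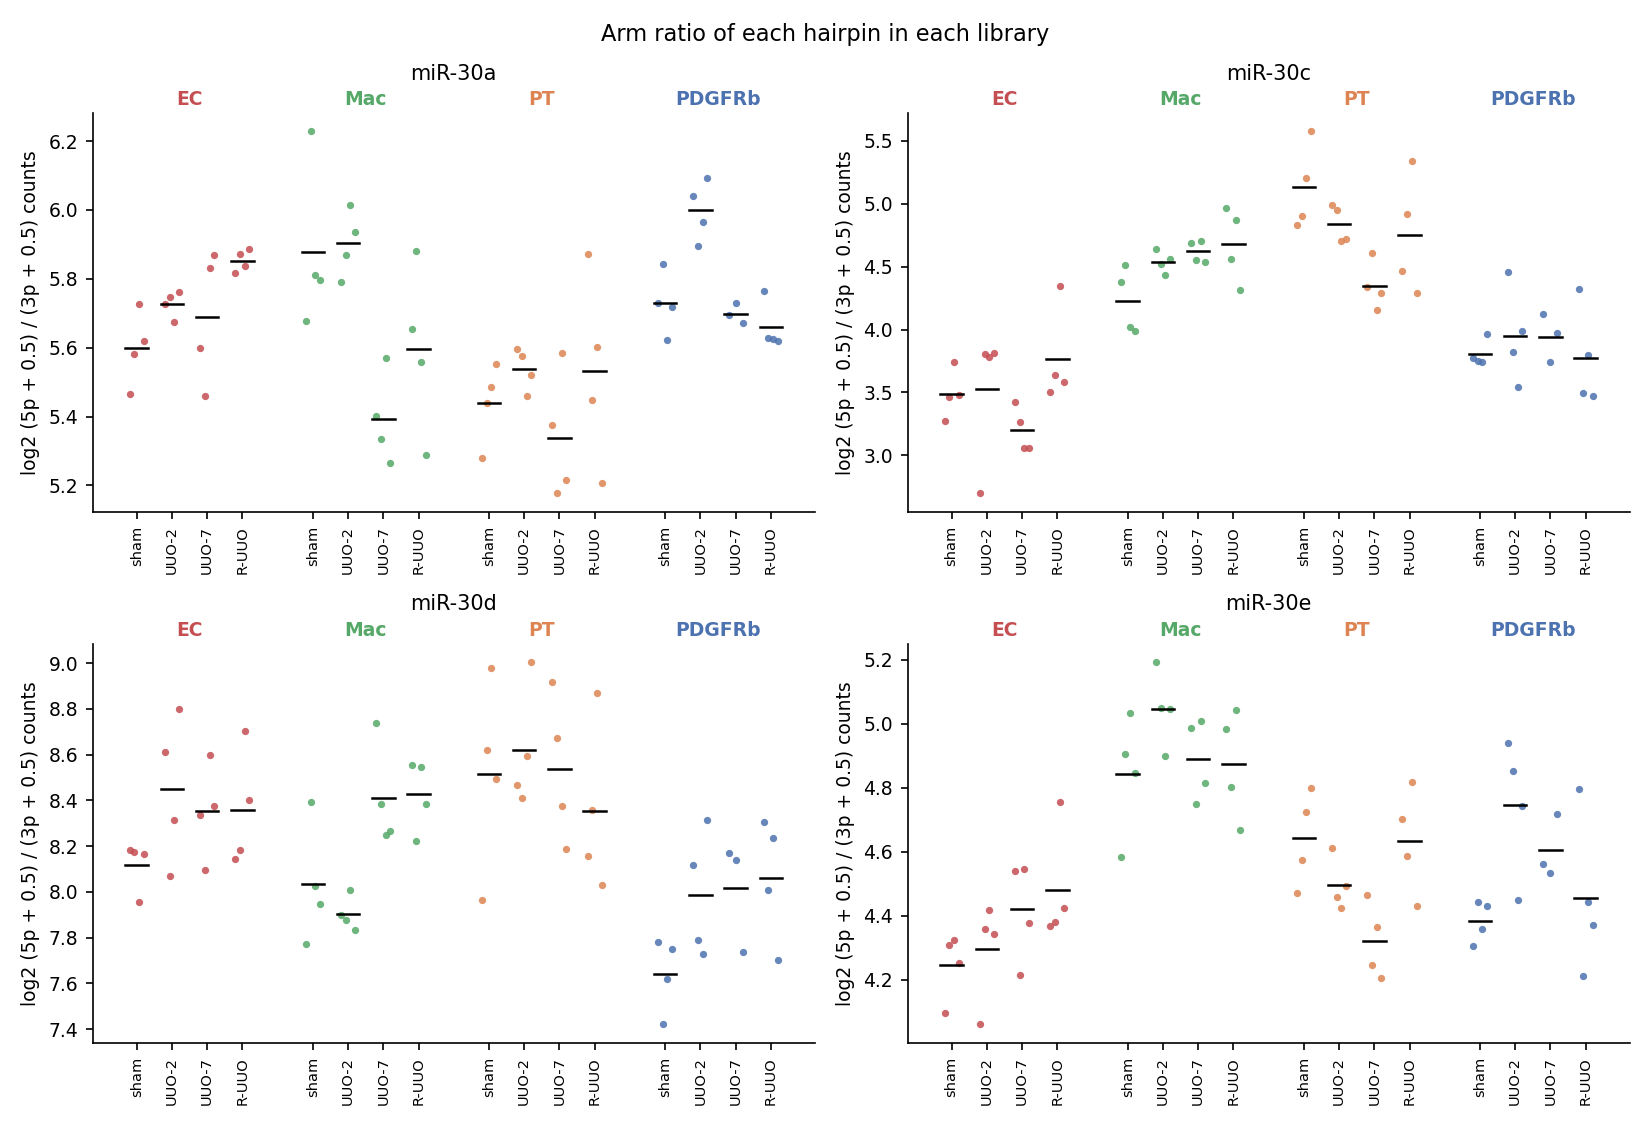
Log2 ratio of 5p to 3p counts (0.5 added to each) of the miR-30a, miR-30c, miR-30d and miR-30e hairpins, by cell type and condition. Points are libraries and bars are means. The miR-30c panel shows PT sham at 4.83 to 5.58 and EC sham at 3.27 to 3.74.

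On the mean z score of a cell type within a condition, which the study required together with a clustering step not repeated here, 5 of the 11 loci lay above the study's threshold in PT sham and in PT after reversal, and 6 did in PT of either obstructed group. In PT sham they were miR-30e-5p (1.62), miR-30e-3p (1.49), miR-30c-1-3p (1.44) and the miR-30c-5p loci (1.24 and 1.24), which are the members of the Nfyc intron and the indistinguishable second miR-30c-5p locus. In EC 2 loci passed in sham and 0 in the other conditions, and in Mac and PDGFRb 0 passed. The share of all loci above the threshold was not computed, so these counts have no background beside them. Both miR-30c-5p loci are counted, although they are the same measurement.

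The levels of the members over the 16 groups fell into separate patterns. Pearson's r of mean log2 CPM was 0.981 between miR-30a-5p and miR-30c-2-3p and 0.849 between miR-30b-5p and miR-30d-5p, against 0.424 between miR-30a-5p and miR-30e-5p, whose sequences differ by 1 base. Among 658 loci outside the family, those most like miR-30a-5p were miR-365-3p (0.921), miR-193a-3p (0.908) and let-7b-3p (0.879), and those most like miR-30c-5p were miR-365-2-5p (0.944), miR-193a-5p (0.943) and miR-365-3p (0.898). For miR-30e-5p they were miR-7240-5p (0.978), miR-192-3p (0.976) and miR-194-5p at its chr19 locus (0.964), of which the last 2 belong to tubule miRNA families. miR-192-3p was rare, with a mean of 7.02 CPM in PT sham and 0.41 or less in the other sham groups. miR-30b-5p was most like miR-5122 (0.767), let-7g-5p (0.696) and miR-7046-3p (0.683), and miR-30d-5p most like miR-653-5p (0.723), miR-183-3p (0.667) and miR-9769-3p (0.621). The points share libraries and scaling, and the values are descriptions of 16 group means.

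Beside a list of other tubule miRNAs (the miR-192, miR-194, miR-200 and miR-141 families with miR-204, miR-215 and miR-429), the miR-30 differences in PT lay within the range of that list. At UUO-7 in PT 3 of the 11 tested tubule loci were called higher and 3 lower (background 25.5% and 17.6%), with a median of 0.29. The extremes were miR-192-5p at -1.62 ± 0.32 (adjusted p = 0.000732) and miR-204-5p at 3.40 ± 0.25 (adjusted p = 4.14e-08), and the miR-30 differences lay between -0.71 and 0.60. miR-204-5p was higher in EC sham (2796 CPM) than in PT sham (112 CPM). In Mac 1 of 9 was called higher and 5 lower (background 26.3% and 16.8%), and in PDGFRb 0 higher and 3 lower of 9 (34% and 14.3%). miR-192-5p differed in those gates by -1.18 ± 0.22 (adjusted p = 0.0002) and -0.96 ± 0.27 (adjusted p = 0.00647), beside -1.28 and -0.88 for miR-30a-5p.

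The 3p strand of the miR-30b hairpin, miR-30b-3p, is no member and was rare, but it did not move with miR-30b-5p in Mac. It held 18.8 ± 3.39 CPM (SD, n = 4) in sham and 36.4 ± 6.70 at UUO-7, a log2 difference of 0.94 ± 0.21 (adjusted p = 0.000974), while miR-30b-5p fell. In PT it went from 14.1 ± 3.14 to 29.1 ± 5.16 (1.03 ± 0.31, adjusted p = 0.0124), in the direction of miR-30b-5p.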

How the data were processed

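Small RNA libraries of 4 sorted cell types from 16 mice (63 libraries) were analysed. Reads had been trimmed by Trim Galore 0.4.1 with cutadapt 1.1 and mapped by ShortStack onto GRCm38, with miRBase loci, and the raw count of each mature locus was deposited by the authors without normalization, 1 column per library, after 1 library was left out. A further column of pooled counts was not used. The placement of reads that map to several loci is not given in the sources used here. Groups and mice came from the sample labels. The members and lists were chosen with earlier results of these data known. Named genes were all members and, for each 5p member, the 3 other names with the most similar levels.

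In R 4.3.3, counts were filtered with filterByExpr, scaled by TMM and tested with edgeR 4.0.16 (quasi-likelihood), in 1 fit per cell type for injury and in 1 fit of all libraries for cell types and for differences of changes. P-values were adjusted by Benjamini-Hochberg over all loci tested (330 in PT to 671 over all libraries). Log2 CPM used a prior count of 2. The script was tested on simulated data. Replicates are separate mice. Over 93 pairs of libraries of 1 group, counts differed by 8.96 times the sampling variance or more. No library was therefore a repeat of another in its group. Pairs from different groups were not compared in this way. The labels give the 4 cell types of a mouse the same number. Deviations from group means correlated by a median r of 0.0485 within a mouse (93 pairs, -0.295 to 0.267) and -0.0166 between mice, so the pairing shows little in the counts. Across conditions a number names different mice. Alternatives were DESeq2 1.42.0, library size only, no filter, loci of a name summed, only the compared groups, the mouse or the number as a block, other thresholds and pseudocounts, and each replicate left out. Leaving out PT R-UUO replicate 1 from fits it is not compared in was chosen after seeing the data.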

Additional observations from a re-analysis of the deposited data

Results flagged for a closer look

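For 10 of 90 groups of libraries checked, 1 library lay far from its group. Chance alone marks about 1 in 20 groups. In CPM scaled within the cell type, miR-30a-5p was 26868 in PDGFRb sham replicate 1 (others 23423 to 23902), miR-30b-5p was 584 in EC UUO-2 replicate 1 (others 1164 to 1240), and miR-30c-5p was 3979 in that same EC library (others 6945 to 7255). Mac R-UUO replicate 5 held 1812 CPM of miR-30b-5p (others 2264 to 2303) and 18241 CPM of miR-30d-5p (others 23848 to 24635). PT UUO-7 replicate 4, the deepest PT library with 5093294 counts, held 2490 CPM of miR-30b-5p (others 1629 to 1719). miR-30d-5p was 9569 CPM in EC sham replicate 3 (others 8139 to 8353), and miR-30e-5p was 6743 CPM in EC R-UUO replicate 4 (others 3893 to 4032). The family took 4.67% of the counts of Mac R-UUO replicate 1 (others 4.98% to 5.04%) and 11.3% of those of PT UUO-2 replicate 4 (others 11.9% or more).

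The change at UUO-7 against sham differed between PT and another cell type in 17 of 33 tests of the difference (edgeR's quasi-likelihood test, adjusted over all loci), always more positive in PT with TMM scaling. Against EC the log2 differences were 0.78 for miR-30a-3p, 1.00 for miR-30c-2-3p, 0.94 for miR-30b-5p, 0.77 for miR-30d-5p and 1.02 for miR-30d-3p. Against Mac they were 1.55 for miR-30a-5p, 1.18 for miR-30a-3p, 1.86 for miR-30c-2-3p, 1.66 for miR-30b-5p, 1.13 for miR-30d-5p and 1.52 for miR-30d-3p. Against PDGFRb they were 0.96 for miR-30a-5p, 1.03 for miR-30a-3p, 1.00 for miR-30c-2-3p, 1.65 for miR-30b-5p, 1.36 for miR-30d-5p and 1.75 for miR-30d-3p. Library size only ended 13 of these 17 calls.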

How the results depend on the processing

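Library size only changed most. The TMM factors, which that setting leaves out, differed between cell types and with injury. In sham it turned the sign of miR-30a-5p (0.31), miR-30b-5p (0.36), miR-30d-3p (0.44) and miR-30d-5p (0.81) for PT minus EC, of miR-30c-1-3p (-0.53), miR-30e-3p (-0.48) and miR-30e-5p (-1.07) for EC minus Mac, and of miR-30c-1-3p (-0.35), miR-30c-2-3p (-0.21), miR-30c-5p (-0.68 and -0.69), miR-30d-3p (-0.75), miR-30e-3p (-0.40) and miR-30e-5p (-0.85) for PDGFRb minus Mac. No other setting turned a sign among calls. Sham CPM of miR-30a-5p became 43214 in EC, 20026 in Mac, 21913 in PDGFRb and 53442 in PT, and of miR-30e-5p 4331, 9066, 5015 and 28380.

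Counts of members called moved as follows. Library size only gave 4 in EC at UUO-7 and 5 in EC, 4 in Mac and 2 in PDGFRb for R-UUO minus sham, 1 in Mac and 0 in PT at UUO-2, 0 in PDGFRb at UUO-7, 0 in Mac for R-UUO minus UUO-7 and 1 for PT minus EC in the change at UUO-7. DESeq2 gave 2 in EC at UUO-7, 4 in Mac for R-UUO minus sham, 2 in PDGFRb at UUO-2 and 3 for PT minus EC in the change at UUO-7. No filter gave 0 in EC at UUO-7 and for R-UUO minus sham, 0 in Mac for R-UUO minus UUO-7, 4 in Mac for R-UUO minus sham, 0 for PT minus EC in the change and 3 for PDGFRb minus Mac in sham. Summing loci gave 0 in EC at UUO-7 and for R-UUO minus sham, and 4 in Mac at UUO-2 and for R-UUO minus sham. Fitting only the compared groups gave 2 in EC at UUO-7, 0 for R-UUO minus UUO-7 and 1 for R-UUO minus sham in Mac, 1 in PDGFRb at UUO-2 and 0 in PT for R-UUO minus sham. A z score threshold of 1.3 left 3 loci in PT in each of the 4 conditions.

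Leaving out each replicate in turn gave 0 members in EC at UUO-7, 0 to 1 for EC R-UUO minus sham, 3 to 4 in Mac at UUO-2, 5 to 8 in Mac at UUO-7, 1 to 2 for Mac R-UUO minus UUO-7, 3 to 5 for Mac R-UUO minus sham, 0 to 1 in PDGFRb at UUO-2, 0 to 1 in PT at UUO-2, 0 to 1 for PT R-UUO minus UUO-7 and 0 to 3 for PT R-UUO minus sham. The same step gave 6 to 9 in PDGFRb at UUO-7, 3 to 6 for PDGFRb R-UUO minus sham and 3 to 4 in PT at UUO-7. The mouse as a replicate block changed no call. The replicate number as a block, which pairs different mice, gave 2 members in EC at UUO-7. The cause of these changes was not tested. The SE of a log2 change at UUO-7 in PT was 0.33 for miR-30d-3p, the rarest member.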
